A study of Oryza sativa with 12 samples.

Results

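The drought response averaged over both cultivars is the mean of the leaf response of Azucena and the leaf response of Bala, 2 rice (Oryza sativa) cultivars, and the genes described here are those that moved alike in both. All 12 arrays of the series enter it, 6 from droughted and 6 from control plants, each hybridised with total RNA of field-grown leaves. Its 4 groups of 3 arrays are Azucena control, Azucena drought, Bala control and Bala drought. Control plots stayed flooded throughout. Drought plots were flooded until day 59 after sowing and then had no water for 24 days, so that all leaves were cut on day 83, in the early afternoon. The tissue was the middle of the second youngest fully expanded leaf, without the outer 4 cm of either end. One bag of pooled leaves stood for each of 3 field blocks, and a drought bag took leaves from more plots of its block than a control bag did. The contrast is therefore one of long field drought against continuous flooding, at one time of day, in leaves pooled over plants.

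Plants short of water raise abscisic acid (ABA). ABA bound to its receptors inhibits protein phosphatases of type 2C (PP2C), which frees kinases of the SnRK2 family (SAPK in rice) to activate bZIP transcription factors and their targets, among them the hydrophilic dehydrins and other late embryogenesis abundant (LEA) proteins. Heat shock proteins keep other proteins folded, and copper-zinc superoxide dismutase removes superoxide formed when light is absorbed faster than carbon is fixed. In droughted cereal leaves photosynthesis is known to be reduced, and in rice drought often delays flowering.

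Signals were analysed as log2(signal + 16), a scale on which the change of a dim gene is understated, and the mean response of a gene is the average of its Azucena change and its Bala change. It was tested with limma over 33476 probe sets, with p-values adjusted by Benjamini-Hochberg over all of them and a threshold of 0.05, and every adjusted p below comes from that test. A gene was said to have moved alike if its mean response passed, if in each cultivar all 3 drought arrays lay on the same side of all 3 control arrays, and if the 95% interval of the difference between the responses (Bala minus Azucena) lay within -1 and 1 on the log2 scale. The last condition is an interval and not a missing interaction call, because a p above the threshold does not show that responses are equal. One probe set, the brightest, stood for each gene.

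Over 15608 genes, 7822 (50.1%) had a called mean response, 4794 higher (30.7%) and 3028 lower (19.4%). Of these, 2725 moved alike, 17.5% of all genes tested, 1707 upward (10.9%) and 1018 downward (6.52%). After quantile normalization the numbers that moved alike were 1721 upward and 1595 downward, so the excess of rises over falls depended on the scaling. The alike changes were mostly modest, with a median of 0.63 for the rises and -0.74 for the falls. A mean change of at least 1 was reached by 275 alike rises (1.76% of all genes) and 301 alike falls (1.93%). In 330 of the 2725 alike genes the dimmer condition lay at background in at least 1 cultivar, where only the bright level is known and the change is a lower bound.

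The responses of the cultivars were estimated from separate arrays. Called in Azucena were 5560 genes (35.6%) and in Bala 6465 (41.4%), and 3139 were called in both in one direction, 56.5% of the Azucena and 48.5% of the Bala genes. A further 200 were called in both in opposite directions. In Azucena 2838 genes were called higher and 2722 lower, and in Bala 4270 higher and 2195 lower. The excess of called rises thus lay mostly in Bala. All drought arrays lay above all control arrays in both cultivars for 2581 genes (16.5%) and below them in both for 1702 (10.9%), and the cultivars separated in opposite directions for 486 (3.11%). Across the 15608 genes the responses correlated with a Pearson coefficient of 0.68 and a Spearman coefficient of 0.59, as a description over genes, which are not independent replicates and were read on shared arrays. The 5097 called genes that did not meet the rule fell into 3576 whose arrays overlapped in a cultivar or lay on different sides and 1521 whose interval reached beyond 1. Among the latter, 555 had a called difference between cultivars and 966 had not, so that for most of them the arrays could not decide how similar the responses were. A difference between cultivars was called for 14.9% of all genes, and the counts of gene groups below read against these shares.

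**Figure D1:**
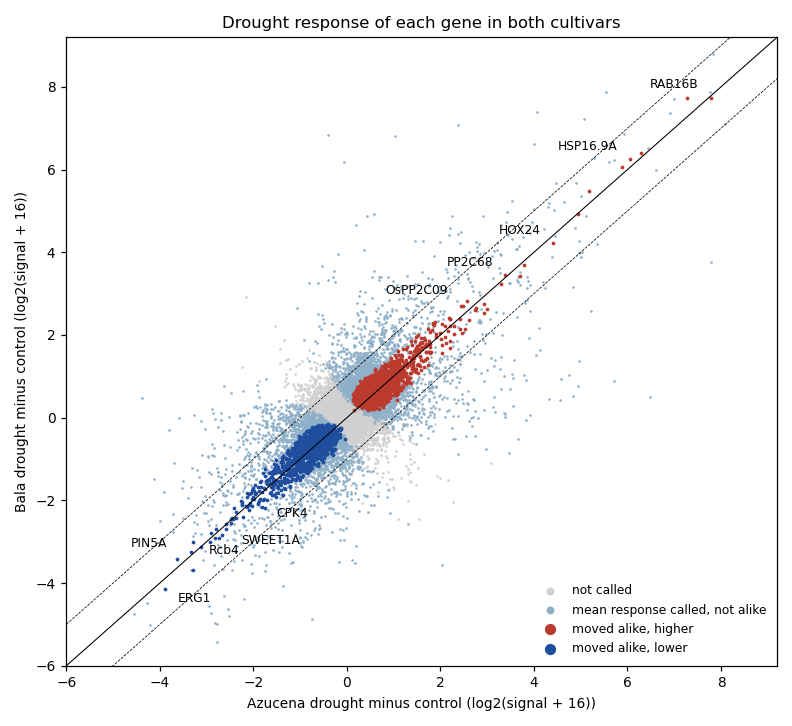
Azucena response (x axis) against Bala response (y axis) of each gene, as drought minus control in log2(signal + 16), with equal responses on the solid line and a difference of 1 on the dashed lines. The 1707 alike rises and 1018 alike falls lie along the solid line, from ERG1 at the lower end to RAB16B at the upper end.

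Of the 2164 tested genes with a name, 377 moved alike (17.4%). The 20 largest rises and 20 largest falls among them are all named below, and each of these 40 kept its called mean response under every alternative tried. With the limit kept at 1, the alike rule was met in every alternative by 14 of the 40, namely PP2C68, OsPP2C09, CIPK6, Roc4, P5CS1, OsTrxm2, SodCc2 and CCS among the rises and Rcb4, CAD2, CPK4, CPK13, OsSAPK2 and TIFY10B among the falls. A pseudocount of 1 in place of 16 widened the interval past 1 for 18 of the others.

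The largest alike rise was that of RAB16B (LOC4350453), a dehydrin induced by ABA. It read 3, 0.4 and 1.9 on the Azucena control arrays and 5.5, 6.3 and 7.8 on the Bala control arrays, all at background, and 3759.9, 3938.9 and 3967.2 in Azucena drought and 5692.4, 5171 and 3760.4 in Bala drought. It rose at least 228-fold over background, by 7.76 on the log2 scale (SE 0.11, adjusted p = 1.9e-17), with 7.78 in Azucena and 7.74 in Bala. Because its control signals are not measurable, the likeness of its rise rests on its drought signals. HOX24 (LOC4330155), a homeodomain-leucine zipper factor, was at background on all 6 control arrays too, and drought gave 465.2, 422.8 and 551 in Azucena and 318.3, 313.6 and 356.3 in Bala, at least 20.9-fold (log2 4.31, SE 0.13, adjusted p = 9.5e-14).

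All 7 of 7 LEA and dehydrin genes rose, against 30.7% of all genes, with a median log2 change of 5.17 against 0.11 over all genes. RAB16B was the only one of them to meet the alike rule, which 2 met without Azucena drought 1 and 3 without Bala drought 1. RAB21 rose at least 422-fold, to 8151.5, 8217.8 and 8118.3 in Azucena and 10420.1, 10108.7 and 8101.7 in Bala, and LEA19 at least 127-fold, to 1733.9, 2142.2 and 2102 and 4189.2, 2967.4 and 1971. For RAB21 and LEA19, with controls at background in at least 1 cultivar, and for RAB16C (5.0 in Azucena, 5.35 in Bala) the intervals of 0.10 to 1.83, -0.18 to 1.10 and -0.36 to 1.07 passed the limit although no difference was called. RAB16D rose at least 11.7-fold from background, to 133, 79 and 61.8 in Azucena and 868, 670.9 and 315.2 in Bala, and Dhn1 rose by 1.51 and 3.02, and for each of both genes the difference between cultivars was called. Where controls are at background, the fitted responses and their difference depend on the added 16. The RAB16 genes are close relatives, and how far their probe sets share signal was not tested.

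Genes of the PP2C phosphatase and SnRK2 kinase families were among those that moved alike. Both groups are whole families by symbol, and which members act in the ABA switch was not tested. PP2C68 (LOC4346736), a PP2C phosphatase, stood at 46.4, 89.6 and 72.2 in Azucena control and 61.2, 81.3 and 66.4 in Bala control, and at 884.7, 754.4 and 951.5 and 1007.8, 809.2 and 929 in drought. Its response was 3.39 and 3.44 in the respective cultivars and 3.42 in the mean (SE 0.13, adjusted p = 3.7e-12), and the difference lay between -0.51 and 0.61. OsPP2C09 (LOC4327465), another phosphatase of this type, rose from 207.8, 196 and 174.4 to 1243.5, 1168.5 and 1047.8 in Azucena and from 155.9, 168.7 and 224.2 to 1240.9, 1338.5 and 1187.4 in Bala (log2 2.59, SE 0.11, adjusted p = 7.9e-12). The drought arrays of both genes lay far above the control arrays and overlapped between the cultivars. Over the whole PP2C family the calls were balanced, with 17 higher and 17 lower of 52, and 5 rises and 6 falls alike, among the falls OsPP2C35 (-1.41) and OsPP2C66 (-1.01). Quantile normalization changed the family's split to 15 higher and 23 lower, and with a pseudocount of 1 only 7 members moved alike.

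Among the SnRK2 kinases SAPK4 and OsSAPK2 moved alike in opposite directions. SAPK4 (LOC4324934) rose from 164.9, 284.9 and 230.1 to 805.1, 852.4 and 729.7 in Azucena and from 276.5, 333.8 and 444.5 to 1647.4, 1672.4 and 1219.6 in Bala (log2 1.92, SE 0.14, adjusted p = 1.1e-08). OsSAPK2 (LOC4343944) fell from 1360.1, 1551.4 and 1437.3 to 380.4, 431.9 and 455.9 in Azucena and from 889.2, 838 and 980.6 to 352, 356.5 and 282.9 in Bala (log2 -1.58, SE 0.10, adjusted p = 1.3e-09). SAPK9 (1.28) and OsSAPK8 (0.46) rose alike, whereas OsSAPK10 and OsSAPK6 rose by 2.02 and 1.82 in Bala and by 1.00 and 0.51 in Azucena, a called difference in both. In all 7 of 10 SnRK2 genes rose and 2 fell, and 4 moved alike. The falls numbered 1 without Azucena control 1 or 2, Bala control 3, Azucena drought 1 or Bala drought 1. Without Bala control 3 or Bala drought 3 the alike count was 2.

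OsBZIP23 (LOC4330838), an ABA-responsive transcription factor, went from 267.9, 255.9 and 240.5 to 1460, 1571.3 and 1413.6 in Azucena and from 297.3, 400.2 and 554.3 to 1739.2, 1608.4 and 1866 in Bala, a rise of 2.26 (SE 0.12, adjusted p = 2.4e-10). TRAB1, a bZIP factor that binds ABA response elements, rose by 1.09. The bZIP group as a whole had more falls than rises, 7 and 4 of 16. Among 7 NAC factors NAC2 (at least 3.21-fold) rose alike, and NAC067 (-1.65) fell with an interval wider than the limit. Of 29 homeobox genes 13 rose and 7 fell. Besides HOX24 the epidermal factor Roc4 (LOC4336705) rose alike, from 38.9, 37.1 and 36.3 to 162.7, 151.8 and 159 in Azucena and from 20.3, 19.9 and 16.3 to 109, 103.1 and 85.3 in Bala (log2 1.71, SE 0.11, adjusted p = 1.7e-09). Roc2, of the same class as Roc4, fell by the same rule (-1.22), as did HOX1 (-1.22), and PCF7, a TCP factor, rose at least 7.09-fold.

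**Figure D2:**
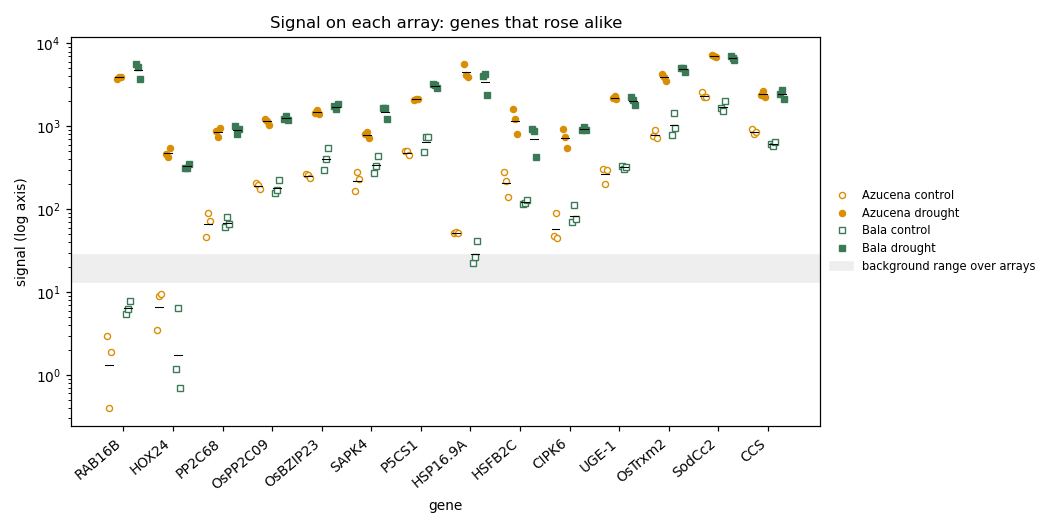
Signal of 14 genes that rose alike (log axis) on each of the 12 arrays, with open symbols for control, filled symbols for drought, circles for Azucena, squares for Bala and a short line at each group's geometric mean. The grey band is the range of background over arrays, which holds or exceeds every control value of RAB16B and HOX24.

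P5CS1 (LOC4338979), which makes the committed intermediate of proline synthesis, rose from 501.1, 498.8 and 452.8 to 2062.7, 2162.1 and 2113 in Azucena and from 492.9, 734.6 and 753.5 to 3231.4, 3112.4 and 2903.5 in Bala. The mean response was 2.15 (SE 0.10, adjusted p = 6.2e-11) and the difference lay between -0.31 and 0.57. OAT (LOC4333554), ornithine aminotransferase, which links arginine breakdown to glutamate and proline, rose by 1.58 (SE 0.14, adjusted p = 1.7e-07), with 894.2, 1279.8 and 1102.7 in Azucena drought against 354.9, 281.5 and 322.6 in control and 1074.9, 895.1 and 683.5 in Bala drought against 224.9, 384.3 and 346.2. OsP5CS2, the paralogue of P5CS1, changed by 3.52 in Azucena and 4.31 in Bala, with an interval of the difference of 0.08 to 1.5. A second probe set of it changed by 1.09 and 0.85, less than P5CS1 (2.09 and 2.22). RFS, a raffinose synthase, and BADH1, betaine aldehyde dehydrogenase, rose with called differences (1.60 and 0.86 in Azucena, 3.53 and 1.74 in Bala).

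Small heat shock protein genes, whose products bind unfolded proteins, rose steeply, and 1 of them met the alike rule. HSP16.9A (LOC4325697) read 52.3, 52.7 and 51.4 in Azucena control and 22.8, 26.5 and 41.2 in Bala control, and 5641.4, 4127.5 and 3936.9 and 3997.4, 4227.8 and 2421.8 in drought (log2 6.15, SE 0.15, adjusted p = 5.7e-15). The response was 6.05 in Azucena and 6.25 in Bala. Of 19 small heat shock protein genes 16 rose and 2 fell, with a median log2 change of 3.40. In HSP26.7 (LOC4332237), dark on every control array, the rise was at least 246-fold, the drought signals were 7696.5, 3184.8 and 3750.9 in Azucena and 5696.6, 6879 and 2812.8 in Bala, and the fitted interval of -0.83 to 1.06 passed the limit. Without Bala drought 3 the number of alike members was 0, and with the replicate number as a block it was 3.

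The drought arrays of a cultivar differed in their heat shock signals in the same order gene after gene. Of the 16 small heat shock protein genes that rose, Azucena drought 1 was the highest Azucena drought array in 16 and Azucena drought 3 the lowest in 14. Among the Bala drought arrays, array 1 was highest in 13 and array 3 lowest in 15. The median SD of the 19 genes tested between drought arrays was 0.89 on the log2 scale and between control arrays 0.29, against 0.18 and 0.22 over all genes. The median half-width of the interval of the difference was 1.19 for them and 0.54 over all genes, and 15 of 16 called genes with separate arrays in both cultivars were not alike. Bala drought 3 was also the lowest Bala drought array in 7 of 7 LEA and dehydrin genes.

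Of 20 heat stress transcription factors 8 rose and 2 fell, 50% called against 50.1% of all genes. HSFB2C (LOC4347637) rose from 278.6, 220.9 and 139.8 to 1628, 1218.7 and 804.9 in Azucena and from 117.1, 120.6 and 128.8 to 929.2, 886.9 and 431.6 in Bala, by 2.41 (SE 0.20, adjusted p = 6.2e-08), and showed the same order of drought arrays as the heat shock proteins. HSFA6B (LOC4326351) rose at least 6.91-fold without that order, to 144.9, 145.1 and 158.8 in Azucena and 115.7, 125 and 105.5 in Bala. HSFA2E rose alike (1.16) and HSFB1 fell alike (-1.14), and without Azucena control 2 only 1 of the 4 factors met the rule. HSFA2A, a heat-induced activator, rose to 1317.3, 405.9 and 161 in Azucena and 410.3, 415.5 and 74.7 in Bala from background, at least 16.6-fold, with an interval of -2.64 to 0.84. Among the larger chaperones CLPB-C, the form of the ClpB disaggregase named for the chloroplast, rose alike (1.35), and CLPB1 rose by 3.50 with drought signals from 160.5 to 2560.5.

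Enzymes of redox protection rose by moderate amounts in the mean response. SodCc2 (LOC4344210), a cytosolic copper-zinc superoxide dismutase, went from 2621.1, 2232.3 and 2238.1 to 7285.1, 7111 and 6782 in Azucena and from 1650.9, 1533.4 and 2037.6 to 6966.2, 6665.7 and 6275.4 in Bala (log2 1.75, SE 0.08, adjusted p = 5.9e-11). CCS (LOC4336726), the chaperone that loads copper into this enzyme, went from 917.2, 815.4 and 849.9 to 2388.9, 2668.6 and 2268.3 and from 613.6, 579.8 and 646.4 to 2485.8, 2721.4 and 2123.8 (log2 1.72, SE 0.09, adjusted p = 1.5e-10). The plastid form sodCp rose by 1.11 (SE 0.07). The dismutase genes and their copper chaperone rose by 1.57, 1.01 and 1.49 in Azucena and by 1.93, 1.22 and 1.96 in Bala, and the interval of CCS, 0.10 to 0.85, did not include 0, although no difference was called for it over all probe sets. Over 21 antioxidant enzyme genes 14 rose and 3 fell, with 5 rises alike, among them the catalase gene CAT-B (0.71) and the peroxiredoxin genes PRXIIF (0.68) and PRXIIE-1 (0.63). In Azucena 4 of the 21 were called higher and in Bala 16 (2838 and 4270 of all 15608 genes). A difference between cultivars was called for 6 of them, against 14.9% of all genes.

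OsTrxm2 (LOC4336484), a plastid thioredoxin of the m type, rose from 760, 910.7 and 718.5 to 4301.6, 3974.1 and 3533.1 in Azucena and from 788.2, 1464.1 and 956.6 to 5065.5, 5021.9 and 4497.7 in Bala, by 2.25 (SE 0.12, adjusted p = 3.4e-10). In the group of 32 thioredoxin and glutaredoxin genes 13 rose and 5 fell, and 7 rises and 3 falls were alike. GRXS10 (0.72), GRXS11 (0.71) and OsTrx08 (0.69) were among the rises and OsTrxy (-0.67) among the falls. A second probe set of GRXS11 was not called (log2 0.22, adjusted p = 0.10), and the further probe sets of GRXS10 were called higher (0.75 and 1.87). The number of falls was 3 without Bala control 2, Azucena drought 2 or Bala drought 1.

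Genes of protein and pigment turnover that were called rose, in shares of 52.9% (FtsH and Clp proteases with EGY3), 44.4% (amino acid breakdown and autophagy) and 100% (chlorophyll breakdown), against 30.7% rising and 19.4% falling among all genes. The list of 17 FtsH and Clp protease genes, most of which serve chloroplasts and mitochondria, also holds EGY3, which belongs to neither family. None of the 17 fell and 9 rose, with FTSH1 (0.65), CLPC2 (0.51) and FTSH4 (0.42) alike. In Azucena 3 of the 17 were called higher and in Bala 9, with 0 called differences between cultivars. EGY3 (3.51) and FTSH6 (2.88) rose far more in both cultivars, with intervals of 0.26 to 1.35 and -0.25 to 1.01. After quantile normalization 2 members of the group were called lower, and after median centring, or without Bala control 1, 1. Without Bala control 3, or after median centring, 5 of them were alike. All 4 called members of the 9 amino acid breakdown and autophagy genes rose, and all of them moved alike (44.4%, against 17.5% of all genes), namely OAT, ALDH5F1 (0.85), which oxidises succinic semialdehyde in the breakdown of GABA, and the autophagy genes ATG4B (0.48) and ATG12 (0.48). Without Azucena control 1 the alike count was 2. All 4 measured genes of chlorophyll breakdown rose in the mean response, with 4 called higher in Azucena and 2 in Bala. RCCR1, red chlorophyll catabolite reductase, did so alike, from 446.5, 285 and 320.4 to 691.6, 1082.3 and 1147.8 in Azucena and from 173.4, 155.2 and 251.2 to 569, 458.5 and 343.5 in Bala (1.3, SE 0.17, adjusted p = 7.4e-06). However, it did not meet the rule without any 1 of Azucena control 1, Bala control 1 and 2, Azucena drought 1 and Bala drought 1 and 2. Nor did it after quantile normalization, after median centring or with the replicate number as a block. SGR, which removes magnesium from chlorophyll, rose by 2.59 and 3.38, with drought signals of 900.4, 2799.5 and 2271 in Azucena and 1169.3, 727.2 and 492.8 in Bala and an interval of -0.38 to 1.96. SGR and a pair of chlorophyll b reductase genes were the senescing leaf markers, and their summed signal went from 1419 to 2037 over the Azucena control arrays to 2733 to 6072 in drought, and from 1385 to 1939 to 2341 to 3337 in Bala.

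Sugar and wall metabolism split between rises and falls. UGE-1 (LOC4339812), UDP-glucose epimerase, which feeds galactose into cell walls and galactolipids, rose from 305.8, 202.2 and 297.5 to 2221.1, 2298.2 and 2121.2 in Azucena and from 336, 302.6 and 324.6 to 2285.5, 2075.3 and 1812.4 in Bala (log2 2.80, SE 0.11, adjusted p = 3.8e-12). SWEET1A (LOC4324848), a sugar transporter of the SWEET family, fell from 315.4, 459.2 and 368.3 to 36.7, 58.9 and 55.3 in Azucena and from 467.3, 307.2 and 718.6 to 61.1, 39.2 and 84.4 in Bala (log2 -2.64, SE 0.19, adjusted p = 9.2e-09), and SWEET16, a vacuolar member, rose at least 2.42-fold. Drought signals of SWEET16 were 73.3, 90.9 and 89.2 in Azucena. In Bala drought they were 15.7, 41.5 and 23.7, close to the background of 18.9, 24.2 and 22.5 on those arrays. With a pseudocount of 1 its interval was 0.38 to 2.57, past the limit. A dimmer second probe set of SWEET1A was not called (log2 0.04, adjusted p = 0.86). GBSS-I, granule-bound starch synthase, fell at least 3.02-fold, while the branching enzyme gene Sbe1 (1.10) and the sucrose phosphate synthase gene OsSPS4F (1.10) rose. The probe set of GBSS-I is one the maker marks as able to bind other transcripts, and of its 4 further probe sets 2 were called lower and 2 were not called. The sucrose synthase gene OsSUS2 fell (-0.78) and its relatives OsSUS4 (1.89) and OsSUS1 (1.52) rose without meeting the alike rule. By group, 7 sucrose genes rose and 3 fell of 16, 5 starch genes rose and 4 fell of 12, and 5 sugar transporter genes rose and 3 fell of 15. After quantile normalization 5 sucrose genes fell.

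The beta-glucosidases, which release sugars from stored conjugates, rose in 11 and fell in 3 of 23 cases. BGLU32 (LOC4347546) rose from 190.5, 292.2 and 266.7 to 1002.8, 1020 and 1092.8 in Azucena and from 142.8, 184.4 and 243.5 to 805.8, 838.1 and 592.8 in Bala (log2 1.95, SE 0.14, adjusted p = 7.5e-09). Its other probe set rose too (1.74), by 2.22 in Azucena and 1.27 in Bala. BGLU18 rose at least 2.56-fold, and BGLU9 (0.88) and BGLU10 (0.74) rose by less, while BGLU12 fell at least 12.4-fold with an interval of -1.62 to 0.18. Lipid transfer and wax genes were called higher in the mean in 7 of 7 cases, against 30.7% of all genes. In Bala 7 were called higher and in Azucena 4, and 2 had a called difference. The alike members were wsl3 (0.87), a wax synthesis gene, and LTP (0.61), and without Azucena control 1 they numbered 4. In a list of cellulose synthase family genes, which also holds BC1L6 and BC1L9 of the separate BC1-like family, 16 of 26 genes rose. None of these rises was alike, and 14 of the list had a called difference between cultivars, against 14.9% of all genes. The summed signal of 4 secondary wall markers, cellulose synthase genes and BC1, of which 3 rose, was 31.7 to 172 in Azucena control and 84.4 to 123 in Azucena drought, which overlapped, and 18.1 to 33.4 and 168 to 377 in Bala. Their part in the rises of that list was not tested. A list of 26 genes of respiration and the tricarboxylic acid cycle also holds genes outside both. These include ICL (isocitrate lyase), MS (malate synthase), PDC2 (pyruvate decarboxylase) and ACLA-2 (ATP-citrate lyase). Of the 26 genes 14 rose, none of them alike, with 10 called differences. At most 2 of them were alike without 1 array (Bala control 1 or Bala drought 2).

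Most measured genes of photosynthesis fell, by small amounts. GDCSH (LOC4349114), the H protein of glycine decarboxylase in photorespiration, fell from 5081.2, 4789.1 and 3603.8 to 1532.4, 1564.3 and 1575.9 in Azucena and from 5060.4, 5326.5 and 4918.7 to 1581.9, 1906.1 and 2777.3 in Bala (log2 -1.41, SE 0.12, adjusted p = 6.4e-08). FBPase (LOC4332364), fructose bisphosphatase, fell from 1888.7, 2107.2 and 1452.3 to 650.6, 667.9 and 713 in Azucena and from 1421, 1824.5 and 1531.6 to 621.9, 663.2 and 1034.7 in Bala (log2 -1.22, SE 0.13, adjusted p = 8.9e-07), and its second probe set changed by -1.37 on that scale. OsrbcS, a small subunit of Rubisco, fell by 0.54, the light-harvesting genes CAB2R and RCABP69 by 0.47 and 0.40, and the glycolate oxidase gene GLO5 by 0.62. In each of these the drought arrays of both cultivars lay below their controls. Counted by the mean response, 6 of 8 genes of the carbon fixation list, 6 of 8 photorespiration genes and 4 of 5 light-harvesting and photosystem genes fell, against 19.4% of all genes. The 6 of the carbon fixation list were FBPase, OsrbcS, PPDK2, OsPPDKB, CFBP1 and NADP-ME2. That list also holds pyruvate phosphate dikinase and malic enzyme genes and CFBP1, a cytosolic fructose bisphosphatase, and is wider than carbon fixation itself. PPDK2 was under background on every Azucena array. In Azucena 4, 5 and 4 genes of the respective groups were called lower and in Bala 4, 4 and 2. Alike falls numbered 2, 2 and 3, and 4 genes of the carbon fixation list had a called difference between cultivars. The alike members of the carbon fixation list numbered 1 without Azucena control 3, Bala control 2, Bala drought 1 or Bala drought 2. Those of photorespiration numbered 4 without Azucena drought 2 or after median centring. After spike-in centring the falls numbered 4, 5 and 3, and without Azucena control 2 or Bala drought 2 those in the carbon fixation list numbered 3. Leaf mesophyll markers, 10 genes of Rubisco, its activase, light harvesting, photosystems and pyruvate phosphate dikinase that overlap these groups, had summed signals of 40835 to 49258 and 41532 to 47900 in Azucena and Bala control and of 32502 to 35418 and 33594 to 35489 in drought, with 7 of 9 tested members lower, 1 higher and RBCS1 at background on every array. The tissue label thus had its markers at high signal, and the part of the cell mixture in the falls was not tested. In bulk leaf RNA fewer cells of a type and less RNA per cell cannot be told apart.

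Of 13 chlorophyll synthesis genes 5 fell and 1 rose. PORA (LOC4337415), light-dependent protochlorophyllide reductase, fell from 322, 660.6 and 567 to 161.2, 164.6 and 206.7 in Azucena and from 976.5, 833.3 and 1055 to 248, 309.1 and 342.8 in Bala (log2 -1.52, SE 0.15, adjusted p = 5.1e-07). CHLH, a subunit of magnesium chelatase, fell by 1.34 and URO-D2, uroporphyrinogen decarboxylase, by 0.81. These 3 were the alike members, and without Azucena control 3 only 1 met the rule. The breakdown genes above rose in the mean response of the same leaves, though in Bala only 2 of the 4 were called higher.

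**Figure D3:**
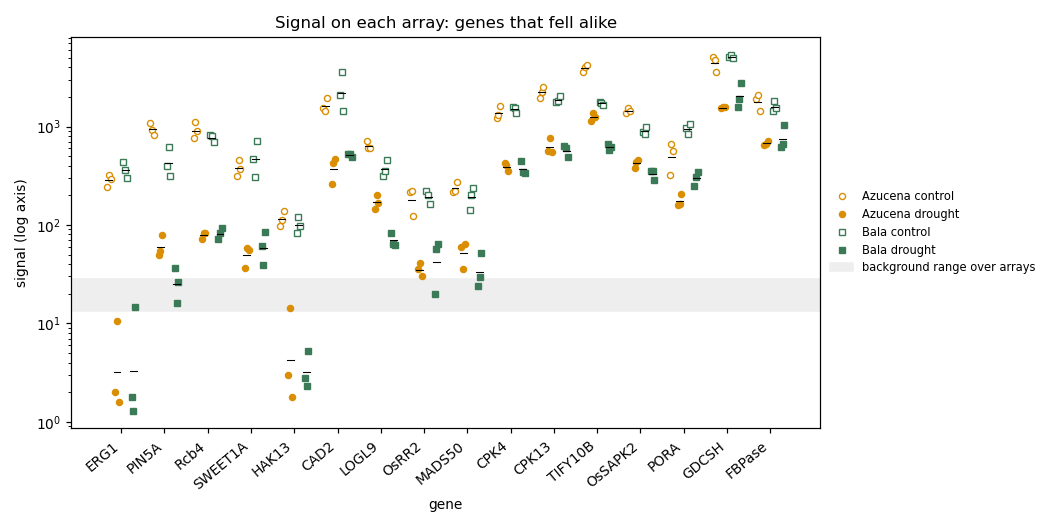
Signal of 16 genes that fell alike (log axis) on each of the 12 arrays, drawn as for the rises. All drought arrays of ERG1 and HAK13 lie at or under background, and GDCSH and FBPase are higher on Bala drought 3 than on the other drought arrays.

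Calcium signalling genes divided by family. None of 19 calcium-dependent kinase genes rose and 9 fell, 6 of them alike, and 6 were also alike after quantile normalization, median centring or spike-in centring. CPK4 (LOC4328155) fell from 1219.1, 1320.8 and 1614.5 to 423, 402.6 and 353.3 in Azucena and from 1593.2, 1529 and 1378.8 to 443.7, 345.3 and 340.5 in Bala (log2 -1.86, SE 0.11, adjusted p = 4.2e-10). CPK13 (LOC4336783) fell from 1965.5, 2263.7 and 2531.4 to 557.9, 760 and 547 and from 1782.7, 1804.1 and 2022.2 to 629.2, 605 and 485.9 (log2 -1.76, SE 0.11, adjusted p = 1.3e-09), and its second probe set changed by -1.39 on that scale. CPK20 (-1.06), CPK1 (-0.69), CDPK5 (-0.59) and CPK8 (-0.50) made up the rest of the alike falls.

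The CIPK kinases, which calcium activates through CBL proteins, rose more often than they fell. CIPK6 (LOC4345687) rose from 48.1, 89.9 and 44.8 to 920, 742.4 and 543.1 in Azucena and from 69.6, 111.8 and 76 to 903, 984.4 and 904.9 in Bala (log2 3.27, SE 0.16, adjusted p = 7.3e-11). Of 30 CIPK and CBL genes 15 rose and 3 fell, but CIPK6 and CIPK8 (0.64) were the only alike members and 9 had a called difference between cultivars (shares over all genes 30.7% higher, 19.4% lower, 17.5% alike and 14.9% with a called difference), among them CIPK14 (3.56 in Azucena, 1.39 in Bala) and CIPK16 (1.52 and 2.69). The number of alike CIPK and CBL genes was 4 without Bala drought 3 and 1 without Bala control 2 or Azucena drought 1, and that of the falls was 1 without Bala control 2, Azucena drought 1 or Bala drought 2. Of 16 MAP kinase genes 8 moved alike (50%, against 17.5% of all genes), among them MAPK5 (-1.28), BIMK2 (-1.03) and MPK8 (-0.66) downward and MPK16 (0.86) upward. Without Azucena control 3, Azucena drought 2 or Bala drought 2 the number was 5. ERG1 (LOC4327497), which encodes a small elicitor-responsive protein with a calcium-binding C2 domain, was the largest alike fall among genes with a name. It read 244.7, 321.3 and 291.7 in Azucena control and 434, 365.4 and 296.5 in Bala control, and 2, 10.6 and 1.6 and 1.8, 1.3 and 14.8 in drought, a fall of at least 14.8-fold to background (log2 -4.02, SE 0.17, adjusted p = 8.9e-12).

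Genes of cytokinin, jasmonate and diterpene defence fell more often than they rose, and those of auxin did not. LOGL9 (LOC4347769), of the LOG family that releases active cytokinin, fell from 715.2, 601.2 and 601.3 to 144.7, 203.3 and 166 in Azucena and from 313.5, 350.7 and 453.9 to 83.8, 64.6 and 62.1 in Bala (log2 -1.99, SE 0.12, adjusted p = 1.4e-09). OsRR2 (LOC4329677), a response regulator induced by cytokinin, fell from 213.8, 223.7 and 123.7 to 35.3, 41 and 30 and from 219.1, 201.4 and 162.6 to 19.9, 56.6 and 63.7 (log2 -1.88, SE 0.19, adjusted p = 5.1e-07). OsRR6 (-1.14) and LOGL5 (-1.03) fell with them, and the histidine kinase gene HK5 rose (0.97). Among 25 cytokinin genes 12 fell and 5 rose, 9 of them alike, or 5 without Bala drought 1. PIN5A (LOC4324368), an auxin transporter of the short PIN type, fell from 1079.8, 922.4 and 814.9 to 50.1, 53.8 and 79.4 in Azucena and from 397.5, 623.2 and 316 to 36.7, 16.3 and 26.2 in Bala (log2 -3.53, SE 0.17, adjusted p = 5.0e-11), in a group of 46 auxin genes in which 13 rose, the response factor genes ARF14 (1.5) and ARF16 (1.08) among them, and 7 fell.

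TIFY10B (LOC4343899), of the JAZ repressors of jasmonate signalling, fell from 3579.7, 4034.9 and 4189.1 to 1150.3, 1366.8 and 1257.3 in Azucena and from 1758.7, 1750.7 and 1638.1 to 662.2, 582.9 and 613.7 in Bala (log2 -1.54, SE 0.08, adjusted p = 2.8e-10). Its signals were higher in Azucena than in Bala in both conditions on every array, and the difference of the responses lay between -0.17 and 0.54. JAZ4 (-0.89), the oxophytodienoate reductase gene OPR13 (-0.70) and the allene oxide cyclase gene aoc (-0.59) fell alike, and 15 of 32 jasmonate genes fell in all, against 5 rises, or 3 rises without Bala control 1 or Azucena drought 2. In diterpene phytoalexin synthesis 12 of 16 genes fell and none rose, the same count under all 3 scalings. CYP99A3 (LOC4335091), of the momilactone cluster, fell at least 3.9-fold, from 77.4, 97.9 and 97.2 to 14.1, 21.8 and 19.5 in Azucena and from 105.4, 122.4 and 109.3 to 15.1, 10.5 and 63.3 in Bala. Only 3 of the group were alike, and 1 without Bala control 1. The salicylate response regulators NPR4 (-1.53), NH1 (-0.61) and NH2 (-0.52), rice relatives of Arabidopsis NPR1, fell alike. So did CAD2 (LOC4328552), a cinnamyl alcohol dehydrogenase of lignin synthesis (-2.07, SE 0.18, adjusted p = 1.1e-07), from 1530.9, 1421.9 and 1967.1 to 263.1, 428.9 and 463.5 in Azucena and from 2089.4, 3578.4 and 1423.8 to 522.1, 523.8 and 491.1 in Bala.

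The flowering genes measured in these leaves fell more often than they rose, 8 against 3 of 22, where 19.4% of all genes fell and 30.7% rose. The share called was 50%, against 50.1% of all genes. MADS50 (LOC4331445), a promoter of flowering related to Arabidopsis SOC1, fell from 217.4, 222 and 270.5 to 59.7, 35.7 and 63.7 in Azucena and from 143.2, 202.5 and 237 to 23.8, 29.7 and 51.4 in Bala (log2 -1.97, SE 0.16, adjusted p = 4.4e-08). MADS55 (-1.12), HD2 (-0.73) and MADS18 (-0.72) fell alike, and MADS16 rose (0.70). MADS55 and HD2 are known as repressors of flowering in rice and MADS50 as an activator, so genes of both effects fell. Of 33 floral and anther markers, which include these MADS genes, 18 were at background on every array, among them MADS3, MADS13, MADS58 and RTS, and 2 rose and 5 fell. Their sums were 5406 to 7174 and 6143 to 7354 in Azucena and Bala control and 3616 to 4087 and 4781 to 4831 in drought, and the part of floral cells in the falls was not tested.

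HAK13 (LOC4341805), a potassium transporter of the HAK family, fell at least 4.92-fold to background, from 96.8, 111.8 and 139 in Azucena control and 83.1, 120.5 and 98.3 in Bala control to 3, 14.2 and 1.8 and 2.8, 2.3 and 5.3 in drought. Among 25 potassium and sodium transporter genes 6 rose and 9 fell, HAK1 (-2.49) with an interval of -0.41 to 1.27. Aquaporins showed no common direction in the mean response, with 7 higher and 5 lower of 20 and small alike changes in OsPIP1;2 (0.53) and OsPIP2;7 (-0.39). By cultivar, 2 were called higher and 6 lower in Azucena, and 7 higher and 3 lower in Bala. A difference between cultivars was called for 5 of the 20, against 14.9% of all genes. Rcb4 (LOC4348631) fell from 759.1, 1099.1 and 890 to 71.8, 82.8 and 82.1 in Azucena and from 822.7, 801.4 and 690.8 to 72, 81.9 and 92.1 in Bala, a log2 change of -3.15 (SE 0.11, adjusted p = 1.5e-12), with nearly the same signals in both cultivars. The remaining named falls were the germin-like gene GER7 (at least 7.37-fold), 4CLL7 (at least 3.56-fold), related to coumarate ligases, and the inositol polyphosphate kinase gene IPK2 (at least 3.24-fold), and the remaining rise was IMCEL2 (at least 3.68-fold).

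Some groups had few called genes in the mean response. Of 25 ribosomal protein genes 2 rose and 1 fell (12%), of 10 clock and light receptor genes 1 fell (10%), and of 24 protein disulphide isomerase and endoplasmic reticulum quality control genes 1 rose and 2 fell (12.5%), against 50.1% called among all genes. By cultivar, 1 quality control gene was called higher and 2 lower in Azucena, and 7 higher and 2 lower in Bala. A difference between cultivars was called for 6 of the 24, against 14.9% of all genes. For ribosomal genes the calls were 0 higher and 4 lower in Azucena, and 2 higher and 1 lower in Bala. Which way the few ribosomal calls went depended on the scaling, with 2 higher and 7 lower after quantile normalization and 6 higher and 0 lower after spike-in centring. Leaving out Bala control 1 gave 4 lower ribosomal and 5 lower quality control genes, and leaving out Bala control 3 or Bala drought 3 gave 4 higher ribosomal genes. Cell cycle and replication genes were called in both directions (15 higher and 9 lower of 48), and 15 were lower after quantile normalization. Of 26 markers of dividing cells 12 were at background on every array, among them CycB1-1, MCM3 and MCM7, and 6 of 15 tested rose and 2 fell. Their sums were 6263 to 6913 and 5704 to 8200 in Azucena and Bala control and 8764 to 9352 and 7214 to 10065 in drought. The markers include histone H2B genes, with mean changes from -0.38 (H2B.10) to 0.81 (H2B.11). Among the others OsPCNA (-0.37) and MCM9 (-0.63) were negative and CYCA1-4 (0.66) was positive. How much each member gave to the sums, and the part of dividing cells in them, was not tested.

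**Figure D4:**
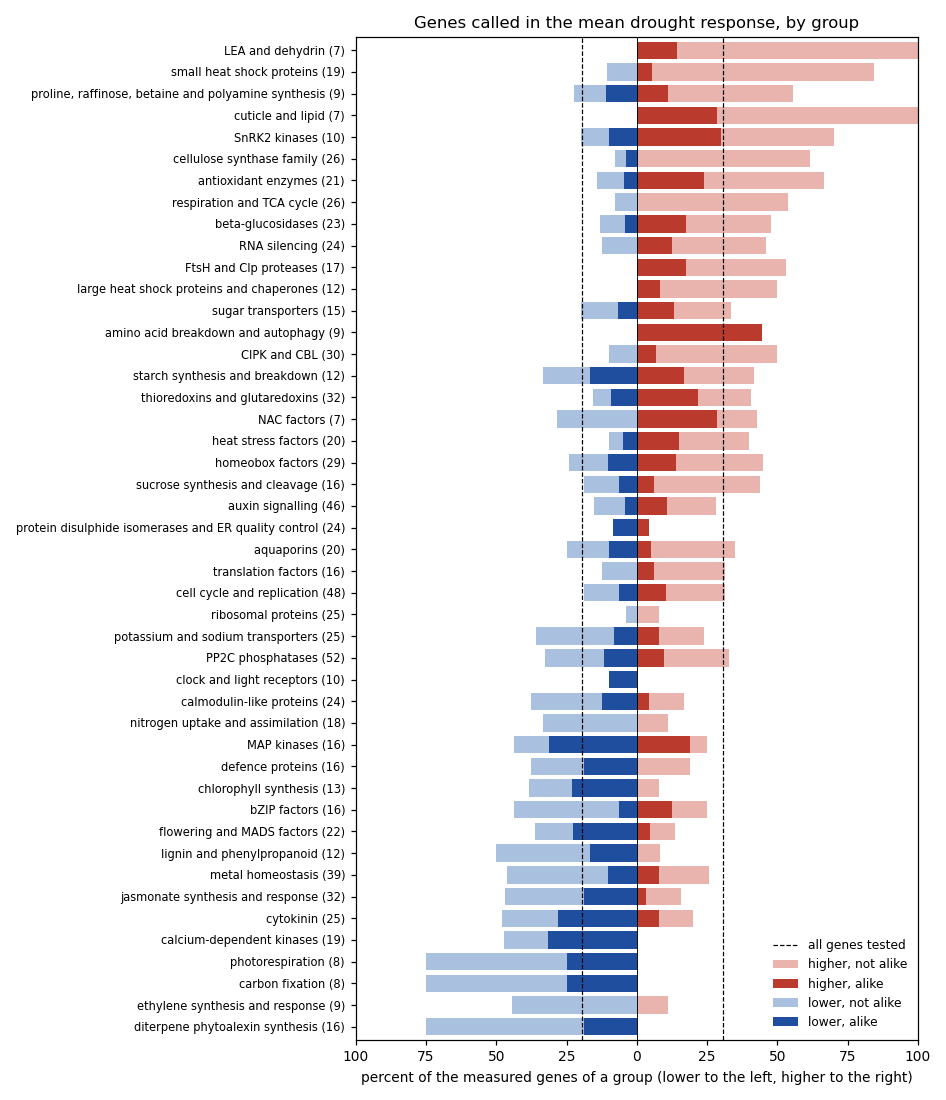
Share of the measured genes of each group called lower (left) or higher (right) in the mean drought response, in percent, with alike genes in the darker shade, dashed lines at the shares over all genes and the number of measured genes in parentheses, for groups of at least 7 measured genes. LEA and dehydrin genes and cuticle and lipid genes reach 100% on the right, and diterpene phytoalexin synthesis, carbon fixation and photorespiration reach 75% on the left. Groups are lists of gene symbols, and those of carbon fixation, FtsH and Clp proteases, cellulose synthases and respiration hold members outside the named process or family.

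Among the 40 largest alike changes of genes with a name the difference of the responses was nearest to 0 in CAD2, where its interval was -0.77 to 0.77. Genes next to the limit, given for their values, had similar intervals on either side of it. Just inside were OsPP2C16 (-0.13 to 0.993), ENR (-0.41 to 0.990) and hox32 (-0.14 to 0.985), and just outside COPT1 (-1.003 to 0.16), Aconitase (-0.16 to 1.004) and GLO4 (-1.004 to -0.09), among named genes with a mean change of at least 1.

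**Figure D5:**
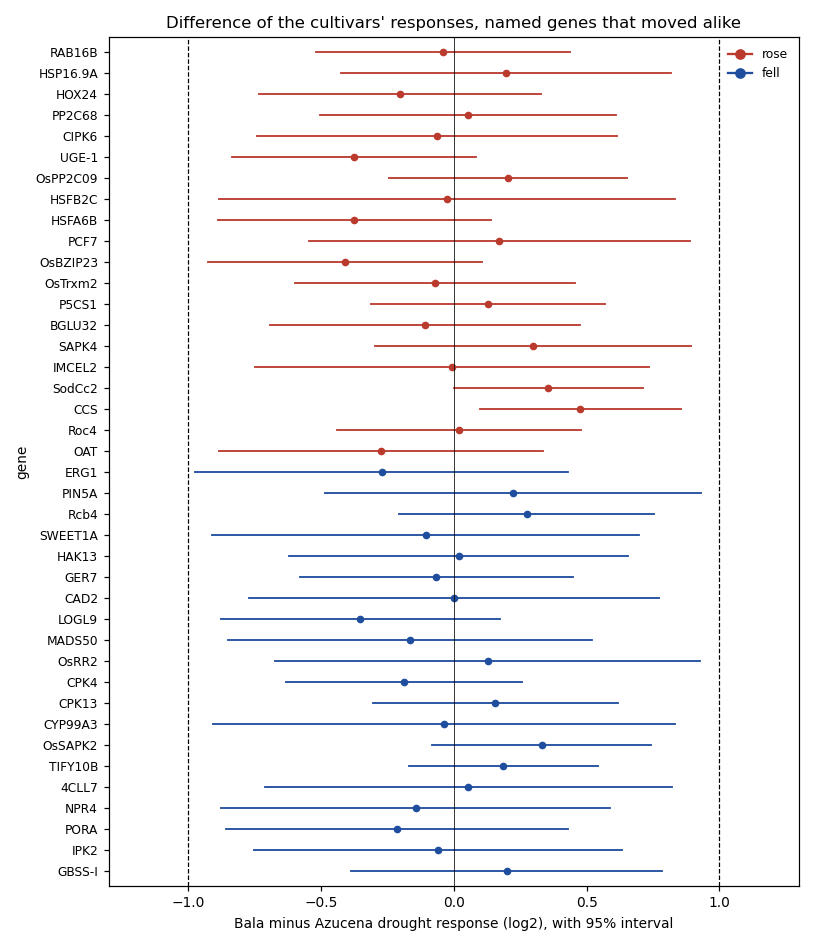
Bala response minus Azucena response (log2, x axis) with its 95% interval for the 20 largest rises (red) and 20 largest falls (blue) among named genes that moved alike, and dashed lines at -1 and 1. All intervals end inside the dashed lines, as the rule requires, and the interval of CCS does not include 0.

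The rule used the brightest probe set of a gene, and the other probe sets of the same genes were read without it, from the same RNA. The alike rises had 392 further probe sets in 306 genes, of which 238 (60.7%) were called higher and 4 lower. The alike falls had 243 in 188 genes, of which 135 (55.6%) were called lower and 19 higher. Over all probe sets tested 24% were called higher and 15.3% lower.

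Most genes on the array have no name beyond an identifier, and these include changes as large as the named ones. The alike rise of 64 unnamed genes exceeded that of OAT, the 20th of the named rises, and the alike fall of 98 exceeded that of GBSS-I. LOC4345700 was at background on all control arrays and read 3023, 2572.5 and 2384.3 in Azucena drought and 4451.7, 3665.8 and 3130.4 in Bala drought, a rise of at least 166-fold, and LOC4339527 rose at least 84.6-fold. LOC4325228 fell from 1313.6, 1593.5 and 1693.6 to 136.6, 130.6 and 159.9 in Azucena and from 1136.6, 1005.5 and 945 to 79.7, 45.3 and 73.4 in Bala (log2 -3.49), and LOC4328899 fell at least 12.9-fold.

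Median signals of the arrays ranged from 9.6 to 12.4 and background, the highest negative control probe set of an array, from 13.4 to 28.3. Among 3 root markers Lsi2 was at background on every array and 1 rose, with sums of 164 to 220 in Azucena control, 311 to 326 in Azucena drought, 101.4 to 166.5 in Bala control and 114 to 205 in Bala drought.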

How the data were processed

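Affymetrix rice arrays were hybridised with leaf RNA of 12 samples, 4 groups of 3, and groups and replicate numbers were taken from the cultivar, stress and biological replicate labels. The deposited values are linear signal intensities per probe set, which the authors made with MAS5 per the submitters' processing notes. Its version and target intensity, and any present or absent calls, were not part of the material used here. Medians differed between arrays, and how the arrays were scaled is unknown. The number of arrays limits the precision. Replicates are bags from separate field blocks, and which number stands for which block is not stated.

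Values were used as log2(signal + 16). A probe set was tested if it exceeded the median of an array on at least 3 arrays, without the 123 control probe sets. The limma package (3.58.1, under R 4.3.3) fitted a mean per group, with moderated variances that follow a trend (lmFit and eBayes), and gave contrasts for each cultivar's response, their mean and their difference, Benjamini-Hochberg adjustment over all probe sets and a threshold of 0.05. The code recovered known changes in simulated data. Background was the highest negative control probe set of an array, and a bound ("at least") divides the bright group by the dim signal or by background, whichever of these is higher, averaged over the cultivars on the log2 scale, and is given where the dim condition was at background in at least 1 cultivar (all arrays, or the mean signal against the mean background). A gene table of the platform gave a single gene for 22436 of 57381 probe sets, several for 95 and none for 34850. RefSeq's table of the species gave names for 2456 of 17905 genes, and its coordinates were not used. Further tools were data.table, version 1.17.8, pandas, version 2.3.3, and matplotlib, version 3.10.9.

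Among genes with a name, those given are the 20 largest alike rises and falls and up to 6 called members of each gene group, alike ones first and then by size of the mean change. Of 82 lists of gene symbols 56 were written first and 26 after the gene names were seen, and 48 are drawn or described. The members and lists were chosen with earlier results of these data known, so counts over a list are descriptions. No sequence is shown, since none came with the tables used. Alternatives were other pseudocounts, filters, scalings, variance models and intervals, an additive model, a replicate block, the mean over probe sets and leaving out each array.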

Additional observations from a re-analysis of the deposited data

Results flagged for a closer look

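For 9 genes named in the text a direct test of the difference between the cultivars' responses passed with limma, adjusted over all probe sets, and none of the 9 met the alike rule. By contrast 3 genes that met the rule, none of them described above, also had a called difference. Values are Bala minus Azucena on the log2 scale. The dehydrin genes RAB16D and Dhn1 differed by 2.63 (adjusted p = 0.0016, a size that depends on the pseudocount since RAB16D was at background in control) and 1.51 (adjusted p = 0.0023), the raffinose synthase gene RFS by 1.93 (adjusted p = 0.0019) and the betaine aldehyde dehydrogenase gene BADH1 by 0.87 (adjusted p = 0.013). Among kinase genes OsSAPK6 differed by 1.31 (adjusted p = 3.5e-04), OsSAPK10 by 1.02 (adjusted p = 0.026) and CIPK16 by 1.17 (adjusted p = 0.044). CIPK14 differed by -2.17 (adjusted p = 0.0026) and the sucrose synthase gene OsSUS4 by -0.95 (adjusted p = 0.027), and these are the only ones of the 9 that rose more in Azucena.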

How the results depend on the processing

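All 134 genes given with a value of their own kept the direction and the call of their mean response in each of 24 alternatives, and 54 of the 110 that moved alike did so in each alternative that kept the limit of 1 and gave a difference, which the additive model does not. Of all alike genes 2105 (77.2%) stayed alike with a pseudocount of 1, when 2106 met the rule, and 2719 of them with one of 64, when 3376 met it. Quantile normalization raised the alike falls from 1018 to 1595, and an interval within -0.5 and 0.5 left 121 alike rises and 88 alike falls, so the counts follow the width chosen. Scaling moved the median mean response from 0.08 to 0.01 (quantile), 0.04 (median) or 0.15 (spike-in), and the share of rises among called genes from 61.3% to 51.4%, 56.8% and 69%. Leaving out 1 array at a time gave 4131 to 5007 genes called higher, 2722 to 3313 lower, 1553 to 2005 alike rises, 934 to 1282 alike falls and 1605 to 2427 called differences, and 88.4% to 92% of the alike genes stayed alike. The replicate number as a block gave 4913 genes higher, 3088 lower and 2776 alike, 98.9% of the alike genes among them. The numbers were not taken as pairs, since same-numbered deviations correlated between -0.11 and 0.22, not all above 0.1. Between the drought groups the correlation was 0.17 for number 1, 0.0034 for number 2 and 0.22 for number 3, against -0.19 and -0.20 for 1 with 3, a hint from the data and not from the design. An additive model called 6877 genes. The share of promoters holding given motifs was not run, because no promoter sequence was in the tables used. Of the alike genes 12.1% had the dim condition at background, which gives only a bound.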
